A study of Mus musculus with 12 samples.

Results

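The centrosomal protein (CEP) and augmin (HAUS) genes were taken as every gene of the count table whose symbol is Cep or Haus followed by a number. This rule found 47 of 56691 genes, 39 CEP and 8 HAUS genes. Among the 39 were Cep83os, Cep112os1 and Cep112it, which are non-coding in GENCODE M21, and Cep295nl, a separate coding gene on another chromosome than Cep295. Cep20 and Cep43 carry older symbols in the table used here and were not found by the rule.

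CEP proteins build and maintain the centrosome, an organelle in which centrioles are embedded in a protein matrix that nucleates microtubules. Centrioles duplicate, mature by adding appendages, and can template cilia. Growing mouse oocytes lose their centrioles and assemble the meiotic spindle from many acentriolar microtubule organizing centers. Augmin, the complex of the HAUS proteins, binds existing microtubules and recruits gamma-tubulin to start new ones along them, which thickens the spindle.

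Oocytes came from 3-week-old females of the C57BL/6 background that had been primed with gonadotropin (PMSG). WT oocytes were compared with Alkbh5-/- (KO) oocytes, which lack the RNA demethylase ALKBH5 in all tissues of the animal because exon 1 with the start codon was ablated. Oocytes of both genotypes were collected at the germinal vesicle (GV) stage and cultured without the meiotic inhibitor milrinone. They were taken after 0 h as GV, after 4 h as germinal vesicle breakdown (GVBD) and after 16 h as metaphase II (MII), with 2 libraries of pooled oocytes for each of the 6 groups. According to the study most KO oocytes in culture kept the germinal vesicle, so KO libraries named GVBD or MII may hold earlier stages, and genotype and stage cannot be told apart there. How many animals gave each pool was not found in the sources used here, so p-values measure the spread between these libraries.

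Total counts per library, in units of 1e6, lay between 28.6 and 40.2, of which 221927 to 838409 fell on ERCC RNAs, synthetic transcripts added to each tube. Between 43 and 46 of the 47 genes had a count in each library. Alkbh5 itself had 5355 to 10181 counts in WT and 54 to 143 in KO libraries, and the edgeR adjusted p-values of the 3 stages were 0.046, 1.26e-05 and 3.60e-06. All 10 oocyte markers were detected in every library. The 10 cumulus and granulosa markers summed to 30.2 to 77.4 CPM (counts per 1e6 gene counts) per library, highest in KO MII replicate 2, with 577 to 2225 counts of Cyp19a1 and at most 4 of Amh and 5 of Foxl2. The sum of 4 blood and endothelium markers ranged from 55.4 to 3364 CPM. At GVBD it separated the genotypes, with 1942 and 1761 CPM in the WT and 55.4 and 87.7 in the KO libraries. It overlapped between genotypes at GV and MII. The sum of 5 heart muscle markers separated the genotypes at MII, with 140 and 61.1 CPM in the WT and 0.367 and 0.0649 in the KO libraries, but overlapped between genotypes at GV (0.308 and 87.3 in WT, 63.0 and 46.9 in KO) and GVBD. The part of these markers in the results was not tested.

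The level of a transcript per oocyte and its share of the transcripts are different quantities, and both are given. Spike-in scaled counts are counts divided by the ERCC total of the library relative to the mean ERCC total, and follow the amount of RNA per tube. CPM follow the share. Fold changes use spike-in scaling unless TMM scaling, which assumes that most genes do not change, is named. Fewer intact oocytes in a tube and less RNA per oocyte cannot be told apart on the spike-in scale. A gene was called when its adjusted p-value over all genes tested was under 0.05 and it differed at least 2-fold (log2 fold change of at least 1).

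Per kilobase of exon, Haus1 was the most abundant of the 47 genes in WT GV oocytes, at 58.6 ± 1.69 CPM per kilobase (SD, n = 2). Haus1 exceeded 95.0% of the coding genes detected there. Cep41, a ciliary protein needed for tubulin glutamylation, was at 39.0 ± 3.34 CPM per kilobase, and Haus3, another augmin subunit, at 38.7 ± 1.13. These 2 did not differ beyond their spread. Cep55, which acts at the midbody in the last step of cytokinesis, was at 31.7 ± 4.79 and Cep78 at 28.3 ± 2.09, again within their spread. Cep78 is a protein of mature centrioles whose loss causes cone-rod dystrophy with hearing loss.

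This order differed in the other groups. In WT MII the most abundant member was Cep55, at 71.9 ± 1.11 CPM per kilobase, while Haus1 was at 21.0 ± 0.236 and stood at place 8. In all 3 KO groups it was Cep78, at 68.4 ± 2.07 in KO GV, 66.8 ± 9.37 in KO GVBD and 79.8 ± 0.651 in KO MII. The gene at the other end, Cep295nl, had 3 counts in 1 WT GVBD library, 4 in 1 KO GVBD library and 0 in the others, where a count of 0 allows up to 3.

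**Figure D1:**
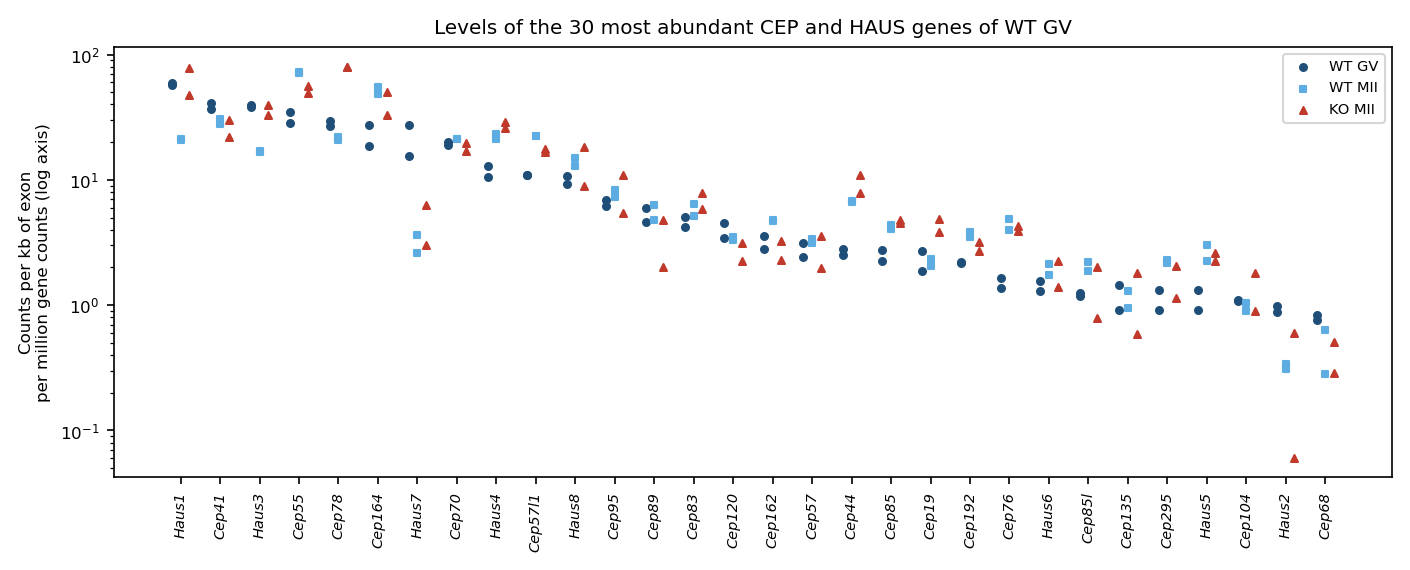
Level of the 30 most abundant CEP and HAUS genes, ordered by their mean in WT GV, as CPM per kilobase of exon on a log axis. Each point is 1 library, 2 per group, of WT GV (circles), WT MII (squares) and KO MII (triangles). Haus1, Haus3 and Haus7 are lower in WT MII than in WT GV, and Cep55, Cep164, Cep57l1 and Cep44 are higher.

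Augmin held 4 of the 5 members called lower at MII than at GV in WT oocytes, and 4 of its 8 genes were called lower and 0 higher, beside 30.5% of all genes called lower. These calls were sensitive to the libraries and the scaling: Haus7 alone was called without either WT GV library, and under TMM scaling Haus7, Haus1 and Haus3 were called lower but Haus4 and Haus5 higher. Summed over the 8 genes, WT libraries held 29650 and 27817 spike-in scaled counts at GV but 11213 and 6834 at MII. The KO sums were 34585 and 28999 (GV) and 24587 and 18067 (MII). As a share, the 2 WT MII libraries stood apart, at 379 and 360 CPM, while the other 10 libraries lay between 604 and 818. These sums mostly follow Haus1 and Haus3, whose median raw counts over all libraries were 12067.5 and 4540. No other subunit had a median above 2020 (Haus8), so the sums do not describe all 8 genes alike.

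Haus7 had the lowest log2 fold change of all members in WT. WT libraries had 1662 and 898 spike-in scaled counts of it at the GV stage, 1482 and 1161 at GVBD, then 155 and 71.3 at MII. KO libraries had 1915 and 1708 at the GV stage, 1820 and 1206 at GVBD, then 320 and 95.3 at MII. Haus7 thus stayed high through GVBD in both genotypes and was low in all 4 MII libraries. In WT it fell by 3.51 ± 0.56 on the log2 scale between GV and MII (SE, adjusted p = 1.12e-08, edgeR). In KO the log2 fold change was -3.13 ± 0.79 with an adjusted p of 0.0563, and under TMM scaling it was called in KO as well, at -2.19 with an adjusted p of 0.0389. The genotype difference of this change was 0.38 ± 0.92 (adjusted p = 1, edgeR).

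Haus1 reached 17440 and 17130 spike-in scaled counts in the GV libraries of WT, 21160 and 10700 in those of GVBD, but only 4424 and 2884 at MII. The KO libraries had 19920 and 15580 (GV), 16930 and 10660 (GVBD), and still 12060 and 12350 (MII). The 2 WT MII libraries were the lowest of the 12, and the KO MII libraries lay within the range of the GVBD libraries. In WT Haus1 fell by 2.24 ± 0.48 on the log2 scale between GV and MII (adjusted p = 3.03e-05, edgeR), and in KO its log2 fold change was -0.54 ± 0.50 (adjusted p = 0.534). KO against WT at MII, Haus1 differed by 1.74 ± 0.75 (adjusted p = 0.424), and by 1.62 ± 0.39 under TMM scaling (adjusted p = 0.132). The genotype difference of the GV to MII change was 1.70 ± 0.59, with a p of 0.0136 before and 0.641 after adjustment over all genes, so it was not called. Under TMM scaling that difference was 1.94 ± 0.48 (adjusted p = 0.178), and with DESeq2 1.70 ± 0.60 (adjusted p = 0.227). Haus1 and Atp5a1, on opposite strands, share 1.80% of the exon bases of Haus1, and whether counting used the strand is not stated.

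For Haus3, too, the 2 WT MII libraries were the lowest of the 12. WT oocytes had 6220 and 6110 spike-in scaled counts (GV), 9871 and 3947 (GVBD), then 1926 and 1259 (MII). KO oocytes had 6170 and 5898 (GV), 7786 and 8138 (GVBD), then 5468 and 2839 (MII). Haus3 fell by 1.95 ± 0.49 on the log2 scale in WT (adjusted p = 4.78e-04, edgeR) and had a log2 fold change of -0.54 ± 0.58 in KO (adjusted p = 0.596). KO against WT at MII the log2 fold change was 1.38 ± 0.80 (adjusted p = 0.846), and the genotype difference of the stage change was 1.41 ± 0.66 (adjusted p = 0.886), or 1.45 ± 0.29 under TMM scaling (adjusted p = 0.102). Neither passed the threshold.

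Haus2 was scarce, with 80 to 159 raw counts in the GV libraries of both genotypes. At MII, WT libraries held 37 and 43 raw counts and KO libraries 68 and 6. In WT it fell by 2.30 ± 0.81 on the log2 scale from GV to MII (adjusted p = 0.0185, edgeR). In KO the log2 fold change was -2.54 ± 1.2 (adjusted p = 0.22), and the 2 KO MII libraries differed from each other by more than either differed from WT MII on the raw scale. Haus2 shares 4.3% of its exon bases with Lrrc57 on the opposite strand, which had up to 2315 counts in a library. Whether counting used the strand is not stated, so the counts of Haus2 are uncertain.

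The other 4 subunits were not called from GV to MII. Haus4 had 1304 and 1010 spike-in scaled counts in WT at GV, against 1637 and 956 at MII. For Haus8, which binds microtubules directly, the WT values were 2401 and 1971 at GV, against 2319 and 1282 at MII. Haus5 and Haus6 had log2 fold changes of 0.55 ± 0.60 and -0.29 ± 0.55 in WT. Haus5 shares 56.5% of its exon bases with the transcript Gm21982 on the same strand, so its counts are uncertain. Log2 fold changes of the 8 subunits thus ran from -3.51 to 0.55 in WT.

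**Figure D2:**
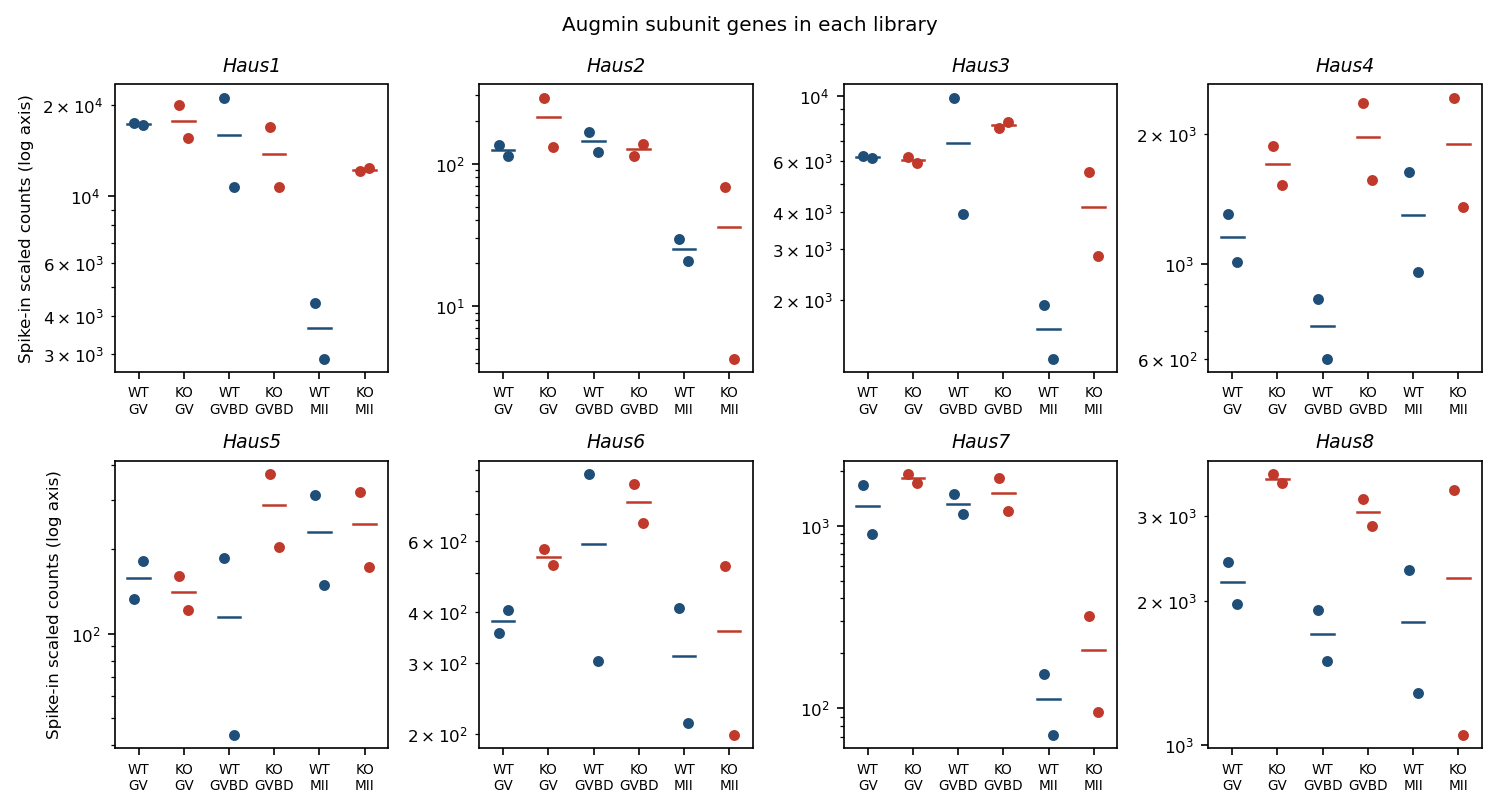
Spike-in scaled counts of the 8 augmin subunit genes in each library, on log axes whose range differs by panel. Points are libraries, 2 per group (WT blue, KO red), and bars are their means. Haus1 and Haus3 are lowest in the 2 WT MII libraries, and Haus7 is low at MII in both genotypes.

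KO against WT, no HAUS gene was called by edgeR at any stage. At MII their log2 fold changes ran from 0.09 for Haus5 to 1.74 for Haus1, with a median of 0.53 beside 0.30 over all genes tested. The sign of the smaller ones depended on scaling and on 1 library: under TMM scaling Haus2, Haus5, Haus6 and Haus8 were below 0, and in KO MII replicate 2 the spike-in scaled counts of Haus8 (1048), Haus6 (198) and Haus2 (4.3) lay below both WT MII libraries. Without KO MII replicate 1, these 4 genes and Haus7 were below 0. In that fit the median of all genes was -0.45, and 35 of the 44 members tested were below 0. The gene nearest to a call was Haus4 at GVBD. It had 830 and 602 spike-in scaled counts in WT GVBD and 2368 and 1569 in KO GVBD, 2 groups that did not overlap. Its log2 fold change was 1.46 ± 0.53, with an adjusted p of 0.167 (edgeR) or 0.0407 (DESeq2). Haus5 at GVBD was at 1.33 ± 0.68 (adjusted p = 0.368, edgeR).

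Over all stages, Cep78 was the only member that edgeR called between genotypes. At GV it had 3523 and 3688 spike-in scaled counts in WT against 10710 and 9744 in KO. At GVBD these were 5371 and 2149 against 9128 and 9066, and at MII 2008 and 1219 against 8739 and 5500. Every KO library lay above every WT library. In the fit over all stages, which held stage as a term, Cep78 was higher in KO by 1.64 ± 0.28 on the log2 scale (adjusted p = 0.0146, edgeR). The same call was made under TMM scaling (1.43 ± 0.20, adjusted p = 0.00275), with DESeq2 (adjusted p = 1.18e-06) and without any 1 of the 12 libraries, where log2 fold changes ran from 1.49 to 1.89 and the highest adjusted p was 0.0400. Of all genes tested over the stages, 1.26% were called and 0.9% were called higher, so 1 of 45 tested members is close to the background.

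Stage by stage, edgeR did not call Cep78. The log2 fold change was 1.5 ± 0.16 among GV libraries (adjusted p = 0.0536), 1.27 ± 0.54 among GVBD libraries (adjusted p = 0.258) and 2.14 ± 0.80 among MII libraries (adjusted p = 0.263). DESeq2 called it at GV (adjusted p = 2.40e-16) and MII (adjusted p = 0.0352). As a share, Cep78 was at 83.1 and 92.3 CPM in WT GV, with 208 and 217 in KO GV. The MII libraries had 67.8 and 64.2 in WT, with 246 and 249 in KO. On the spike-in scale, libraries of 1 group differed by up to 1.61-fold in gene counts per ERCC count. The gene lies on the minus strand of chromosome 19 from 15955773 to 15984989 (GRCm38), and shares no exon bases with another annotated gene.

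**Figure D3:**
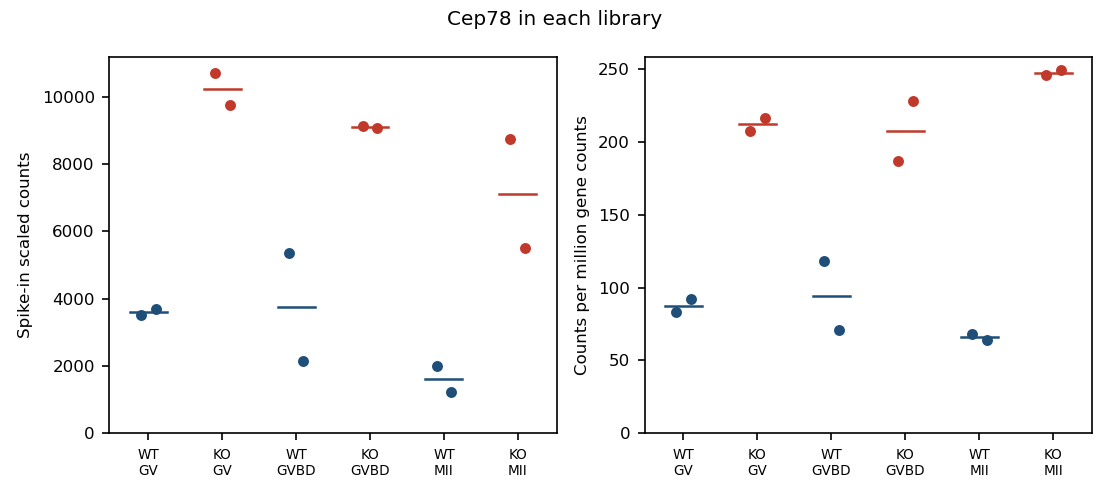
Cep78 in each library as spike-in scaled counts (left) and as CPM (right), both axes from 0. Points are libraries, 2 per group (WT blue, KO red), and bars are their means. All 6 KO libraries lie above all 6 WT libraries on both scales.

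Few genes of the other centrosome structures came near a call between genotypes. Of the 44 members tested at GV, edgeR called 0 and 9 had an unadjusted p under 0.05, while DESeq2 called 2, Cep78 and Cep128. The background was 0.0977% of genes called by edgeR and 3.48% by DESeq2. An unadjusted p under 0.05 in edgeR was found for 3475 of all 19452 genes. Cep128, a protein of subdistal appendages, had 177 and 271 spike-in scaled counts in WT GV and 575 and 630 in KO GV, without overlap, and a log2 fold change of 1.43 ± 0.34 (adjusted p = 0.162, edgeR). The third highest was Cep19, which helps to start cilium formation, at 0.94 ± 0.36 (adjusted p = 0.255). The lowest were Cep83os at -0.52 ± 0.64, Cep97, which caps growing centrioles, at -0.52 ± 0.64, and Cep170b at -0.52 ± 0.66.

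At GVBD, edgeR called 0 of 43 members, 2 had an unadjusted p under 0.05, and DESeq2 called Haus4 alone. The background was 2.54% by edgeR and 4.63% by DESeq2, and 2901 of 19462 genes had an unadjusted p under 0.05 in edgeR. Behind Haus4, Haus5 and Cep78, the lowest log2 fold changes were those of Cep97 (-0.40 ± 1.04), Cep55 (-0.26 ± 0.51) and Haus1 (-0.21 ± 0.52). At MII, edgeR called 0 of 43, 2 had an unadjusted p under 0.05, and DESeq2 called Cep78 alone. The MII background was 0.803% by edgeR and 1.97% by DESeq2, and 1286 of 17566 genes had an unadjusted p under 0.05 in edgeR. The lowest at MII were Cep97 at -1.32 ± 1.26, Cep72, a satellite protein, at -0.84 ± 1.37, and Cep162, which binds microtubules of the axoneme, at -0.49 ± 0.83. Cep97 had 22 and 13 raw counts in the KO MII libraries, with 66 and 53 in those of WT.

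As a list, the members had medians near those of all genes. Their median log2 fold change, KO against WT, was 0.41 at GV beside 0.36 for all genes, 0.27 beside 0.23 at GVBD, and 0.13 beside 0.30 at MII. Under TMM scaling the member medians were 0.06, 0.03 and -0.14. The pericentriolar material, satellite and linker genes had medians of -0.07 (GV), 0.33 (GVBD) and 0.26 (MII). Those of the centriole assembly genes were 0.51, 0.27 and -0.01, so the order of the sets changed between stages. The difference between these sets was not tested, and edgeR called 0 of their genes with all libraries kept.

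**Figure D4:**
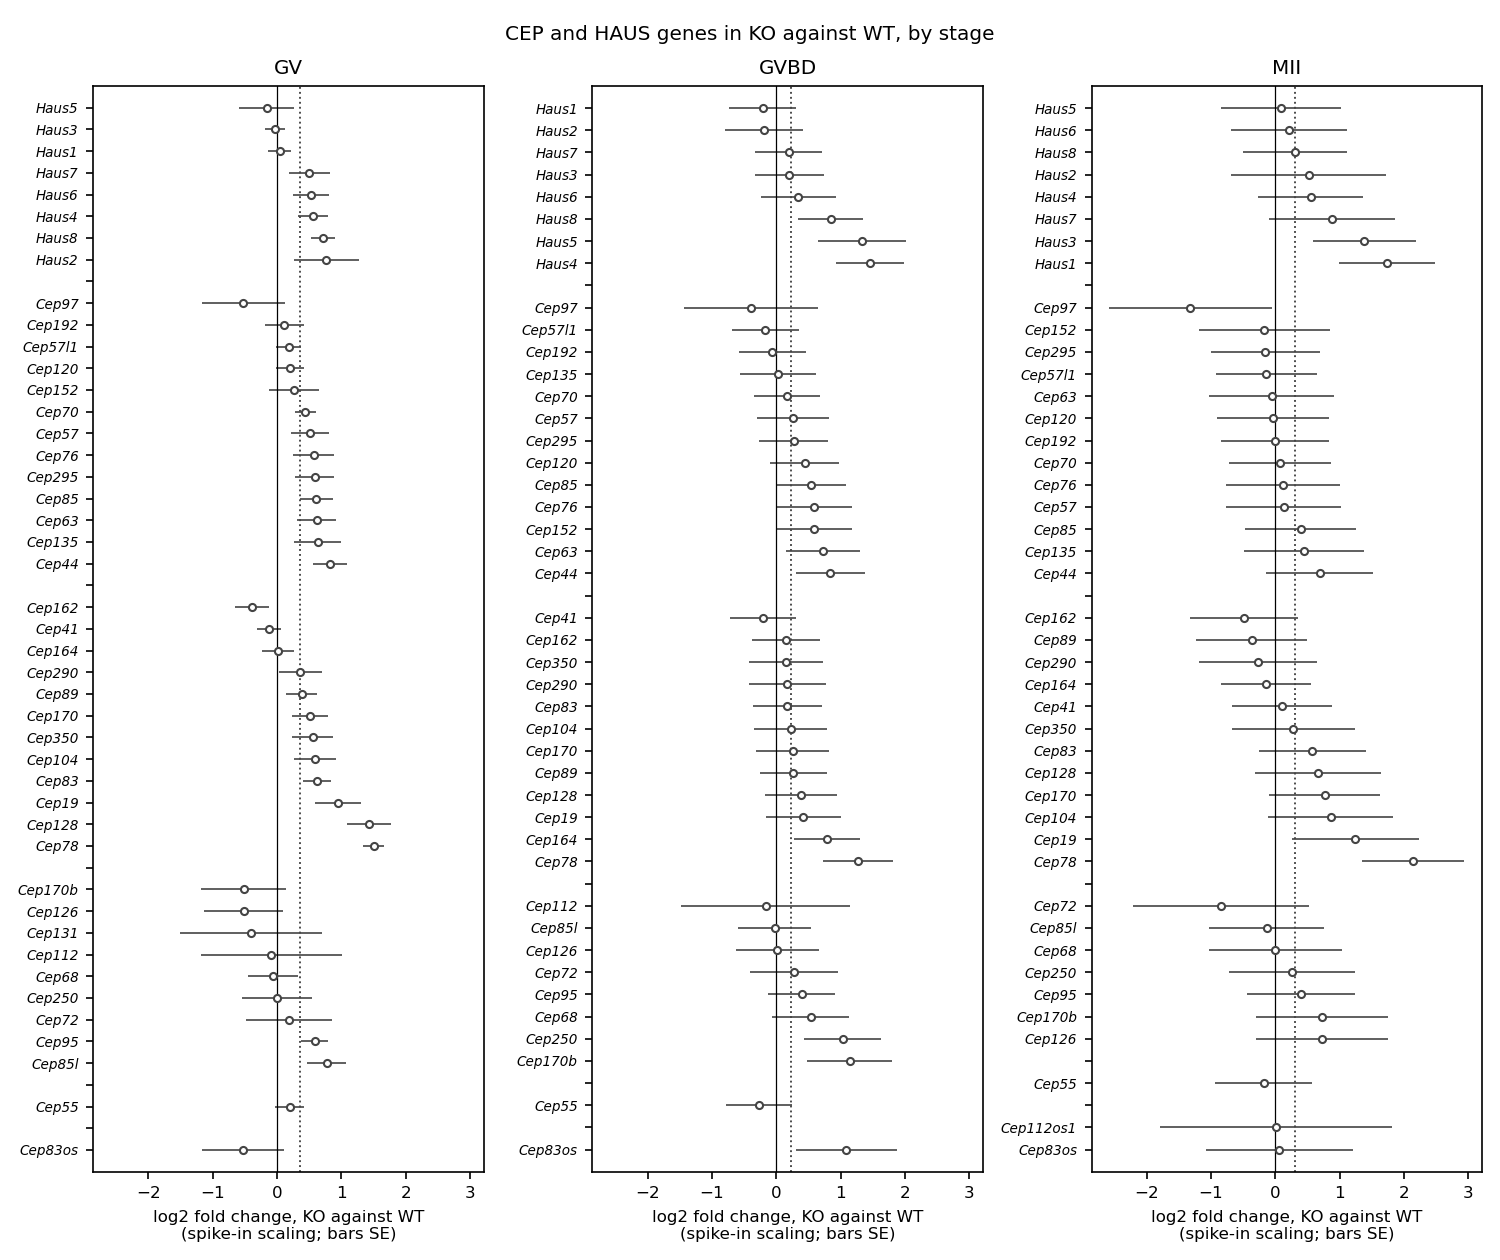
Log2 fold change of KO against WT (spike-in scaling) of each tested member at GV, GVBD and MII, with SE bars and 2 libraries per genotype. Blocks from top to bottom are augmin, centriole assembly, appendages and cilium, pericentriolar material with satellites and linker, the midbody gene Cep55, and non-coding genes. The dotted line is the median of all genes tested and open points were not called, which holds for every point. Cep78 is the highest point at GV and MII.

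Between GV and MII in WT, 5 of the 45 members tested were called, all of them lower (11.1%), beside 30.9% of all genes called and 30.5% called lower. The member median was -0.76 and that of all genes -1.06. Besides Haus1, Haus2, Haus3 and Haus7 the fifth was Cep41, whose WT libraries had 8736 and 7296 spike-in scaled counts at GV, then 4541 and 2640 at MII. It fell by 1.16 ± 0.48 (adjusted p = 0.0479, edgeR). Cep78 had the same log2 fold change, -1.16 ± 0.49, and missed the threshold. Without either WT GV library, Haus7 alone was called and Haus1 had an adjusted p of 0.11 or 0.103. Without WT MII replicate 1 there were 9 calls among 44 members, beside 26.1% of all genes, and without replicate 2 there were 3.

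In KO, edgeR called 0 of 44 members between GV and MII, 2 had an unadjusted p under 0.05, and DESeq2 called Haus7. The background was 3.28% by edgeR and 16.3% by DESeq2, and 4626 of 18777 genes had an unadjusted p under 0.05 in edgeR. The member median was -0.68 and that of all genes -1.17. Cep112 had 9 and 24 raw counts in KO GV and 0 in both KO MII libraries, where 0 allows up to 3 counts in each. Without KO MII replicate 1, 25 of 44 members (56.8%) were called in KO, beside 54.2% of all genes, so this library moved the count for members and for genes at large alike. The genotype difference of the GV to MII change was called for 0 of 45 members by edgeR and by DESeq2, and 2 members, Haus1 and Cep112, had an unadjusted p under 0.05 in edgeR. The background of that test was 0% by edgeR and 0.721% by DESeq2, and 1197 of 20807 genes had an unadjusted p under 0.05 in edgeR.

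**Figure D5:**
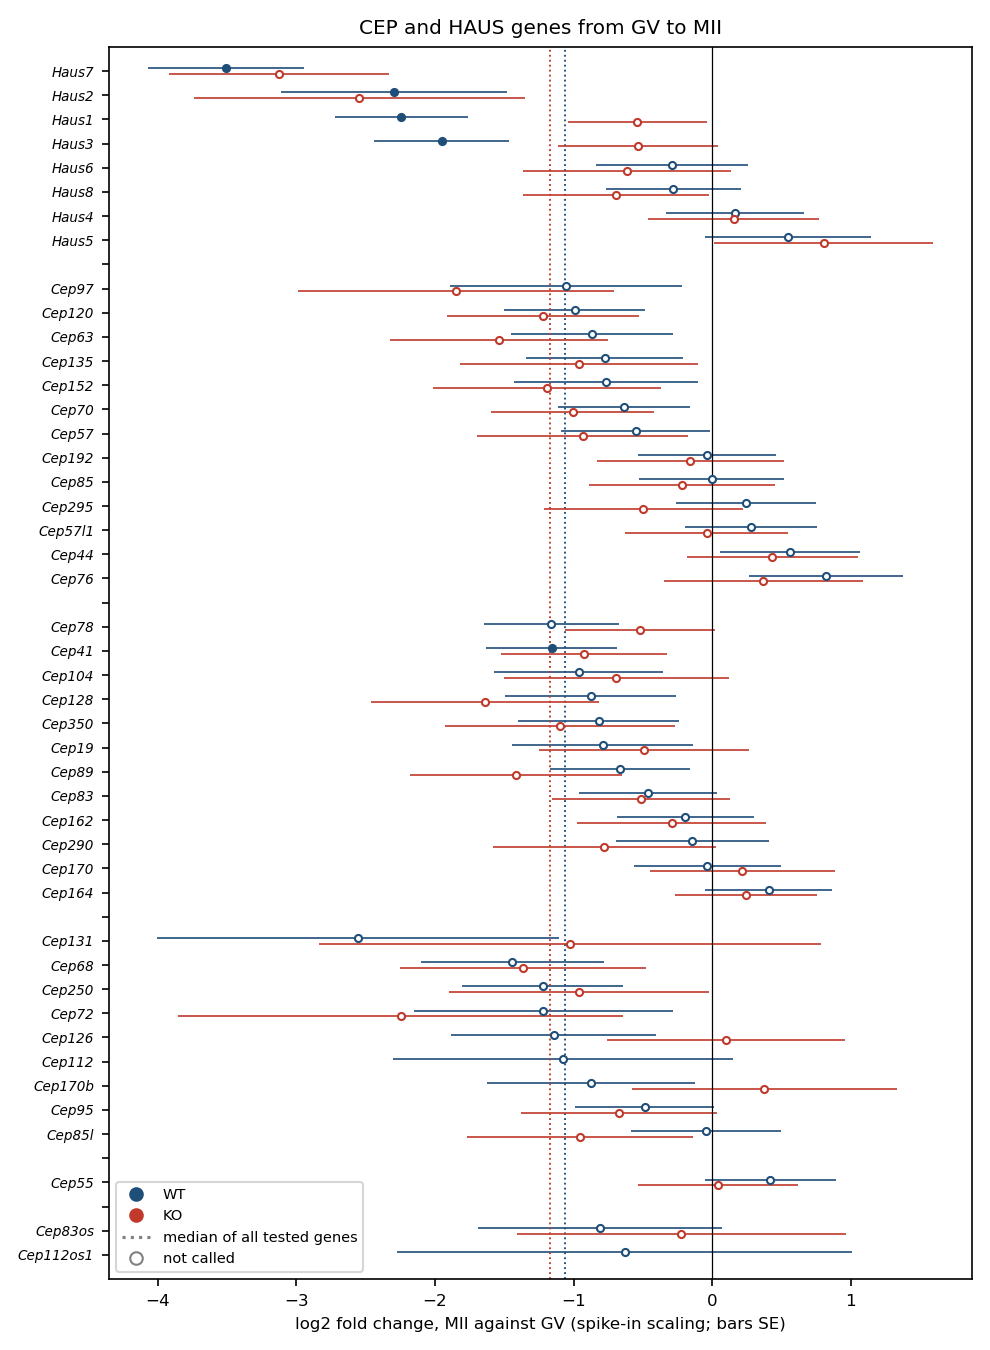
Log2 fold change from GV to MII (spike-in scaling) of each tested member in WT (blue) and KO (red), with SE bars and 2 libraries per group. Filled points were called, open points were not, and dotted lines are the medians of all genes tested, -1.06 in WT and -1.17 in KO. Blocks are ordered as augmin, centriole assembly, appendages and cilium, pericentriolar material with satellites and linker, Cep55 and non-coding genes, and Cep112 in KO, with 0 counts at MII, is left out.

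Relative to the other transcripts of the same library, several CEP genes gained share by MII. Under TMM scaling, which moved the median of all genes from -1.06 to -0.14, 11 of the 45 members were called in WT, 8 higher and 3 lower, beside 8.47% of all genes higher and 16.2% lower. The 3 lower were Haus7 (-2.66), Haus1 (-1.32) and Haus3 (-1.03). The 8 higher were Cep76 (1.71), Cep44 (1.49), Haus5 (1.43), Cep55 (1.32), Cep164 (1.28), Cep57l1 (1.19), Cep295 (1.13) and Haus4 (1.06), all with spike-in log2 fold changes between 0.16 and 0.82 that were not called. Cep76, Cep44, Cep164, Cep57l1 and Cep295 are named after their values were seen. Without 1 of the 4 libraries the count ran from 5 to 11, and Cep44, Cep57l1 and Haus1 were called each time. In KO, TMM scaling called 2 members, Haus7 and Haus4 (1.25, adjusted p = 0.0497), beside a background of 5.06%.

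Cep44 helps to turn new centrioles into centrosomes. Its share was 15.4 and 17.1 CPM at GV, then 40.4 and 41.5 at MII in WT, and 26.8 and 21.9, then 48.2 and 67.1, in KO. MII lay above GV in both genotypes with no overlap. Cep57l1, a paralog of Cep57 that helps to hold centriole pairs together, was at 63.8 and 64.3 CPM in WT GV, rising to 132 and 131 in WT MII, and had 103 and 98.1 in KO MII. Cep57 itself was at 13.0 and 10.1 CPM (WT GV) and at 13.0 and 14.1 (WT MII). Cep55 went from 102 and 82.1 CPM in WT GV to 211 and 206 in WT MII, and Cep164, a distal appendage protein that docks centrioles at the membrane, from 276 and 185 to 546 and 481.

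The other paralog pairs were not called on the spike-in scale. Cep85, which limits centriole separation, had log2 fold changes from GV to MII of -0.0031 in WT and -0.22 in KO, and Cep85l -0.04 and -0.95. Cep170, a subdistal appendage protein, had -0.03 in WT and 0.22 in KO. Cep170b had -0.88 and 0.38, but its counts ranged from 10 to 197 and its 2 WT MII libraries held 146 and 10.

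The transcript ends were read because stored oocyte mRNAs are known to be activated at maturation through cytoplasmic polyadenylation elements, short U-rich stretches near the polyadenylation signal. Libraries started from polyadenylated RNA, so a longer tail and more RNA cannot be told apart. The last 100 bases of 1 complete coding transcript per gene (GENCODE M21) were searched on the transcript strand for TTTTAT or TTTTAAT. For 41 of the 47 members the 3′ UTR was long enough. An element was present in 14 of the 41 (34.1%) and in 19.5% of 13102 genes searched. TTTTAAT can share its end with a following AATAAA. Of the 8 genes with a higher share at MII in WT, Cep44, Cep55, Cep57l1, Cep76 and Cep295 held an element, and Haus4, Haus5 and Cep164 did not. Of the genes called lower on either scale, Haus2 held one, and Haus1, Haus7 and Cep41 did not.

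The 30 bases around the element are shown for 4 of the genes that gained share, with the element and any complete polyadenylation signal in capitals. They lie at chr8:56531522-56531551 (Cep44), chr10:41718904-41718933 (Cep57l1), chr19:38074331-38074360 (Cep55) and chr9:15316924-15316953 (Cep295) of GRCm38, on the minus strand except for Cep55, in the 3′ UTR.
Cep44: attcttaAATAAAtacTTTTAATattttaa
Cep57l1: tcTTTTATactttaaaattagtgatgtcac
Cep55: tgTTTTATtccttcagattttctaacatgc
Cep295: atTTTTAATttaagtcaAATAAAttatttg

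The 4 were chosen because they hold an element. Of the genes that gained share without one, Haus4 (chr14:54541802-54541831) and Cep164 (chr9:45766968-45766997), both on the minus strand, are shown at their last polyadenylation signal, in capitals.
Haus4: aggcgtgtgtaataatttcctgAATAAAgt
Cep164: atttttttttttttttgcacctATTAAAtc

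Of the genes called lower in WT, Haus2 is shown at its element (chr2:120621513-120621542, plus strand), and 3 others, of which Haus7 and Cep41 held no element, at their last polyadenylation signal, in capitals. They lie at chrX:73437329-73437358 (Haus7), chr5:34153928-34153957 (Haus3) and chr6:30653470-30653499 (Cep41), on the minus strand and in the 3′ UTR.
Haus2: acTTTTATtaatgactcaagctgtaaaaat
Haus7: gagatgggtaggagagggaagaAATAAAag
Haus3: ttttaaagatgaagactatctaAATAAAag
Cep41: tgtgcaattatgaatgttgaagATTAAAga

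The 3′ UTRs of Haus3 and Cep78 were too short for the search, at 92 and 66 bases. The end of Cep78, at chr19:15955774-15955803 on the minus strand, holds a TTTTAAT whose last bases are part of the signal, and the capitals mark both.
Cep78: tcaaaTTTTAATAAAttttcttatgttttt

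Across the 2557 genes with an element the median log2 fold change from GV to MII in WT was 0.45 under TMM scaling, and across the 10545 genes without one it was -0.10. With spike-in scaling these medians were -0.48 and -1.02. Among members they were 0.50 for the 14 with and 0.19 for the 27 without an element under TMM scaling, so those without one also lay above the genes at large. In KO the genes with and without an element had medians of 0.39 and -0.16, and the members 0.37 and 0.11. The AU-rich pentamer ATTTA was in 43.9% of member ends and 23.1% of all, the Pumilio motif TGTANATA in 7.32% and 5.0%, and GGACT, a core of the sequence methylated to m6A, in 7.32% and 6.26%. These matches are a description of the letters in 1 window per gene.

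From GV to GVBD no member was called. In WT 44 were tested, 0 were called by edgeR or DESeq2, 0 had an unadjusted p under 0.05, and the median was 0.05 beside 0.01 for all genes. The background was 0.0511% by edgeR and 1.9% by DESeq2, and 1223 of 19566 genes had an unadjusted p under 0.05 in edgeR. In KO 44 were tested with the same counts of 0, and the median was -0.09 beside -0.15. The KO background was 0.22% by edgeR and 1.18% by DESeq2, and 1459 of 19064 genes had an unadjusted p under 0.05 in edgeR. The low values of Haus7 and, in WT, of Haus1 and Haus3 were thus seen at MII and not at GVBD, where their log2 fold changes in WT were 0.04, -0.12 and 0.16.

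Other proteins of centrosomes and microtubule organizing centers were read from a list of 46 further genes. KO against WT, Tubg2 and Poc1a were called at GVBD, both higher, and 0 of 46 at GV, 0 of 44 at MII and 0 of 46 over all stages. The 2 calls among 45 genes tested at GVBD stand beside 2.54% of all genes. Tubg2, a gamma-tubulin, differed by 2.06 ± 0.53 (adjusted p = 0.0418, edgeR) and Poc1a, a centriole stability protein, by 2.26 ± 0.54 (adjusted p = 0.0267). Tubg2 had 556.5 and 417.1 spike-in scaled counts in WT GVBD, 1958 and 2115 in KO GVBD, and 1189 and 1032 in WT GV. Poc1a had 387.5 and 508.3, 2513 and 1790, and 1419 and 1228 in the same groups. These calls depended on the fit. With all libraries in 1 model, 1 of all 22004 genes tested was called higher at GVBD, so at most 1 of the 2 calls was kept. From GV to MII in WT, 8 of the 46 were called lower and 0 higher, beside 30.5% of all genes called lower, with a median of -0.20 beside -1.06. Crocc, a rootlet protein, had 15 and 14 raw counts in WT GV and 0 in each WT MII library, where 0 allows up to 3. The lowest of the called genes with counts at both stages were Mzt2, a subunit of the gamma-tubulin ring complex, at -4.0 ± 0.61, Ssna1 at -2.46 ± 0.50 and Tacc3, which stabilizes spindle microtubules, at -2.42 ± 0.49. Replicates of Ssna1 differed widely, with 8901 and 2691 spike-in scaled counts in WT GV and 1628 and 477.1 in WT MII. In KO Mzt2 was the only one called, at -3.52 ± 0.80 (adjusted p = 0.0464, edgeR).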

How the data were processed

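RNA of pooled mouse oocytes was measured in 12 libraries. The authors deposited raw counts of reads per gene, without normalization, beside those of 92 ERCC sequences. Per the labels and methods the authors used cutadapt 1.9, HISAT2 2.0.4 against mm10 with the ERCC sequences, unique reads, StringTie 1.3.4d, and DESeq2 and edgeR. The methods describe template-switching cDNA amplified by PCR and the labels a dUTP preparation, so the protocol and the use of strand are not settled. Amplified reads are not independent molecules, so a limit from 0 counts covers counting error only.

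Each of 9 comparisons was fitted on all genes kept by filterByExpr, with edgeR 4.0.16 (glmQLFit, glmQLFTest, R 4.3.3, two-sided), library sizes in proportion to ERCC counts, the libraries of the groups compared and no replicate block. P-values were adjusted over all genes tested by the Benjamini-Hochberg method. SE is the log2 fold change over the square root of F. The scripts were tested on simulated data. Alternatives were TMM scaling, no filter, DESeq2 1.42.0, all libraries in 1 model, leaving out each library, and a replicate block. Crossed numbers, and TMM scaling with a library left out, were added after the data were seen.

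Named were all HAUS genes, members called between genotypes, up to 3 called extremes of each stage comparison, the 5 most abundant in WT GV, the 3 highest and lowest between genotypes at each stage, paralog pairs, and called genes of the list of 46. No member had 3 counts or fewer in every library. Members and lists were chosen with earlier results of these data known. Symbols were found for 91.8% of gene identifiers. Positions and lengths are those of GENCODE M21 (GRCm38).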

Additional observations from a re-analysis of the deposited data

How the results depend on the processing

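Over all stages Cep78 stayed the 1 member called under each alternative run, and between GV and GVBD 0 members were called under each. KO against WT at GV the count of 0 became 2 without a filter and 2 with DESeq2, and 0 to 1 when a library was left out. At GVBD it became 1 with DESeq2. At MII it became 1 with DESeq2, and it moved for Cep72 when KO MII replicate 1 was left out. The 1 KO MII library then left had 0 counts of Cep72, where 0 allows up to 3. The log2 fold change of Cep72 in that fit was -8.35. From GV to MII in WT the count of 5 became 11 under TMM scaling, 3 with all libraries in 1 model, 1 to 9 when a library was left out, and 11, 8, 6 and 5 when TMM scaling was combined with leaving out WT GV replicate 1 or 2 or WT MII replicate 1 or 2. Under TMM scaling without WT GV replicate 1, Cep162 (1.06) and Cep192 (1.03) were called higher. Spike-in scaling with all libraries kept gave values below 0. When a library was left out, spike-in values ran from -0.53 to 0.083 for Cep162 and from -0.31 to 0.20 for Cep192. From GV to MII in KO the count of 0 became 2 under TMM scaling, 1 without a filter, 1 with DESeq2, 2 with all libraries in 1 model and 0 to 25 when a library was left out. Over all genes, 666 of 29351 were called at GV without a filter, and 2659 of 28535 from GV to MII in KO. In the 1 model of all libraries, 3839 of 22004 genes were called from GV to MII in WT and 2933 in KO. The cause of the differences in member counts between settings was not tested.

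Replicate numbers did not pair the libraries: the correlation of replicate differences was -0.22 at GV, 0.14 at GVBD and -0.18 at MII over 13273 genes. With a replicate block the counts were 0 at GV, GVBD and MII, 1 over all stages, 6 from GV to MII in WT, and 2 in KO (Haus7 and Haus2). Over all genes, the block gave 673 calls among 22004 over all stages. From GV to MII it gave 4973 among 18816 in WT and 2462 among 18777 in KO. With the numbers crossed the count was 1 at GV, beside 218 of all 19452 genes, and 0 at MII. There were 2 libraries per group, with up to 1.61-fold differences in gene counts per ERCC count between them. KO against WT at MII, even log2 fold changes of 2.14 (Cep78) and 1.74 (Haus1) were not called by edgeR. The lack of edgeR calls there therefore does not exclude changes of 2-fold or somewhat more.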
